A study of Rattus norvegicus with 12 samples.

Results

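Pf4, Ppbp, Itga2b, Gp1bb, Gp5 and Selp are 6 genes expressed by megakaryocytes and platelets, and they were followed in long bone of sham-operated rats and of ovariectomized (OVX) rats fed with or without blueberry (BB). A gene was measured where at least 1 probe set of the array carried its symbol alone. This held for 5 of the 6 genes, through 6 probe sets, out of 14217 genes measured in all. Gp1bb shares its probe set with Septin5, so no value was attributed to it. Female Sprague-Dawley rats were used, and all were sacrificed at postnatal day (PND) 81. The sham group was sham-operated and fed the casein control diet, and the OVX group was ovariectomized and fed the same diet. In the LTBB OVX group ovariectomized rats were fed the long-term BB diet, and in the STBB OVX group the short-term BB diet. Surgery was on PND 60, 3 weeks before sacrifice. The BB diet held 10% BB powder and was given from PND 20, and it went on to sacrifice for LTBB OVX but ended at PND 34 for STBB OVX. Each group had 3 arrays, each a pool of RNA from 2 to 3 rats. The sample labels name the femur as the tissue and the methods the right tibia.

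Megakaryocytes are the large polyploid cells of bone marrow that shed platelets into the marrow sinusoids. They pack alpha granules with chemokines and adhesive proteins, and they carry on their surface the receptors by which platelets stick to injured vessel walls and to each other. Pf4 (platelet factor 4, CXCL4) and Ppbp (pro-platelet basic protein, CXCL7) encode alpha granule chemokines. Itga2b encodes the alpha chain of the platelet fibrinogen receptor, Gp5 and Gp1bb encode subunits of the receptor complex for von Willebrand factor, and Selp encodes P-selectin, an alpha granule membrane protein that reaches the surface after activation and is also made by endothelium.

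Megakaryocyte genes are classically controlled through GATA and ETS motifs near their start sites, so the promoters of the members were read for the letters of these motifs. RefSeq start sites on the GRCr8 assembly gave a window of 250 bases before and 50 bases after the start for 4 members, Itga2b, Gp5, Gp1bb and Ppbp. Those of the 3 measured genes are shown 5′ to 3′ on the strand of the gene. No window was available for Pf4 and Selp. Capitals mark matches to GATA letters (AGATAA and TGATAA, besides AGATAG and also TGATAG, on both strands), to ETS letters (AGGAAG, and likewise CGGAAG, on both strands) and to TATAAA on the strand of the gene. The Itga2b window is chr10:87925784-87926083 on the minus strand, the Gp5 window chr11:83948257-83948556 on the plus strand and the Ppbp window chr14:17587250-17587549 on the minus strand.
Itga2b: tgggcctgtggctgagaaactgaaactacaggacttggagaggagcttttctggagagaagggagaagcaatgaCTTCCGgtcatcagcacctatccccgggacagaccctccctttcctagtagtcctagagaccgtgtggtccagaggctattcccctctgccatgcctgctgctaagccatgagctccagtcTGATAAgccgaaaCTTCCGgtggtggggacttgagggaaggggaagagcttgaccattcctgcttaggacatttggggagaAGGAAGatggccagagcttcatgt
Gp5: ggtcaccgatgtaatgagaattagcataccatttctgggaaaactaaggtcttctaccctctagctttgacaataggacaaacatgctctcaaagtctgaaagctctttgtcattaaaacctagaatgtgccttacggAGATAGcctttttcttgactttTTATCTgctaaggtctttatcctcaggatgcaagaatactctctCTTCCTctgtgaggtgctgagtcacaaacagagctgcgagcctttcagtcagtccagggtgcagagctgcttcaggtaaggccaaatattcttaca
Ppbp: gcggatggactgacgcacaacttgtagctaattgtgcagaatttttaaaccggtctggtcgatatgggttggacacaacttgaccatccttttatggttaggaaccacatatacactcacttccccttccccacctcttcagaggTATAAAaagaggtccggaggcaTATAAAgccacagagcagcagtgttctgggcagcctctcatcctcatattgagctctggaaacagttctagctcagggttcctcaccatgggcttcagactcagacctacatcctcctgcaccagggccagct

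The Itga2b window held 1 GATA match, beginning 55 bases before the start site, and 3 ETS matches, of which the nearest upstream began 42 bases before it. The Gp5 window held 2 GATA matches and 1 ETS match, and so did the Gp1bb window. In the Ppbp window no GATA or ETS match was found, and it held 2 matches to TATAAA. Over 33469 rat promoter windows of the same length, 30.3% held a GATA match, 45.5% an ETS match, 12.9% both and 8.8% TATAAA. These matches describe letters only.

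Deposited values were log2 values centred for each probe set, so that 0 is the median of the 12 arrays. They show how a gene differs between arrays, and its level is not known. The sham arrays stood apart, with a standard deviation over probe sets of 0.781 to 0.824 against 0.136 to 0.194 in the arrays of OVX rats. With 9 of the 12 arrays from OVX rats, the centring puts 0 among those arrays. A gene that differs from sham then has its deviation in the sham arrays, so their wider spread follows at least in part from the centring. Of the 14217 genes 8367 (58.9%) differed between OVX and sham by limma, a linear model fitted to all genes, at an adjusted p under 0.05. In 61.2% of genes all sham pools lay on one side of all OVX pools. Most genes thus passed in this comparison, and the members are read against these shares. Nothing in the sources ties the arrays to hybridization batches, and a batch that separated the sham arrays from the others cannot be told apart from the operation.

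Ovariectomy went with lower values of all 5 measured members, and in none of them did an OVX pool reach a sham pool. The 4 genes Pf4, Ppbp, Itga2b and Gp5 were 4.65 to 5.98 times lower, and Selp was 1.72 times lower. The median log2 difference of the 5 was -2.34, whereas that of all genes was 0.0047, and 28.6% of all genes were lower in OVX by the test. When the arrays were given the same distribution by quantile normalization, Pf4 (-0.97), Itga2b (-0.99) and Gp5 (-0.97) still passed in OVX with smaller differences. Ppbp (-1.17, adjusted p = 0.22 by limma) and Selp (-0.21, adjusted p = 0.12 by limma) did not. The sham arrays were the widest as deposited, so giving all arrays the same spread shrinks differences from sham by construction. A call lost there does not show that a difference was absent. In bulk bone, fewer megakaryocytes, less RNA per megakaryocyte and a different share of other tissues in the RNA cannot be told apart. Markers of cartilage, bone and muscle also differed between OVX and sham, as given below.

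The chemokine genes behaved alike. Pf4 had centred log2 values of 2.31, 2.09 and 1.92 in the sham pools and of -0.28, -0.021 and -0.037 in the OVX pools. Its log2 difference between OVX and sham was -2.22 (SE 0.17, adjusted p = 9.6e-08 by limma, n = 3 pools per group). Every sham pool was thus far above every OVX pool. Ppbp had 2.63, 2.77 and 1.80 in the sham pools against -0.54, -0.001 and 0.005 in the OVX pools. Its difference was -2.58 (SE 0.28, adjusted p = 3.8e-06 by limma, n = 3), and its pools spread more widely than those of Pf4 in both groups. The SD over the sham pools was 0.53 for Ppbp and 0.20 for Pf4.

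The receptor genes were lower by a like amount. Itga2b had 2.62, 2.52 and 2.08 in the sham pools and -0.24, 0.014 and 0.009 in the OVX pools. Its log2 difference was -2.48 (SE 0.18, adjusted p = 5.8e-08 by limma, n = 3). For Gp5 the sham pools had 2.75, 2.24 and 1.77 and the OVX pools -0.26, 0.11 and -0.10. The difference of Gp5 was -2.34 (SE 0.20, adjusted p = 3.3e-07 by limma, n = 3). The 95% confidence intervals of the 4 genes overlapped one another, from -3.19 to -1.97 for Ppbp at the widest. Among all genes ranked by this difference they lay in the lowest 1.64% to 2.31%.

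Selp was lower by less. The mean of its 2 probe sets was 0.94, 0.82 and 0.78 in the sham pools and -0.035, 0.096 and 0.13 in the OVX pools. The log2 difference was -0.78 (95% confidence interval -0.92 to -0.64, adjusted p = 3.0e-07 by limma, n = 3), an interval that did not overlap those of the other 4 genes. This mean joined a pair of probe sets that did not behave alike. With probe set 1391946_at the sham pools had 1.65, 1.70 and 1.35 and the OVX pools -0.041, 0.058 and 0.13. It differed by -1.52 (SE 0.099, adjusted p = 1.4e-08 by limma over all probe sets). With probe set 1369374_at the sham pools had 0.22, -0.069 and 0.21 and the OVX pools -0.029, 0.13 and 0.13, which overlapped. It differed by -0.044 (SE 0.091, adjusted p = 0.72 by limma over all probe sets). In the platform's annotation the first is paired with an expressed sequence tag and the second with a curated mRNA record. The call of Selp therefore rested on 1 of its probe sets, and with the other alone it was lost against sham in all 3 OVX groups. Which of them measures the transcript of Selp was not tested.

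**Figure D1:**
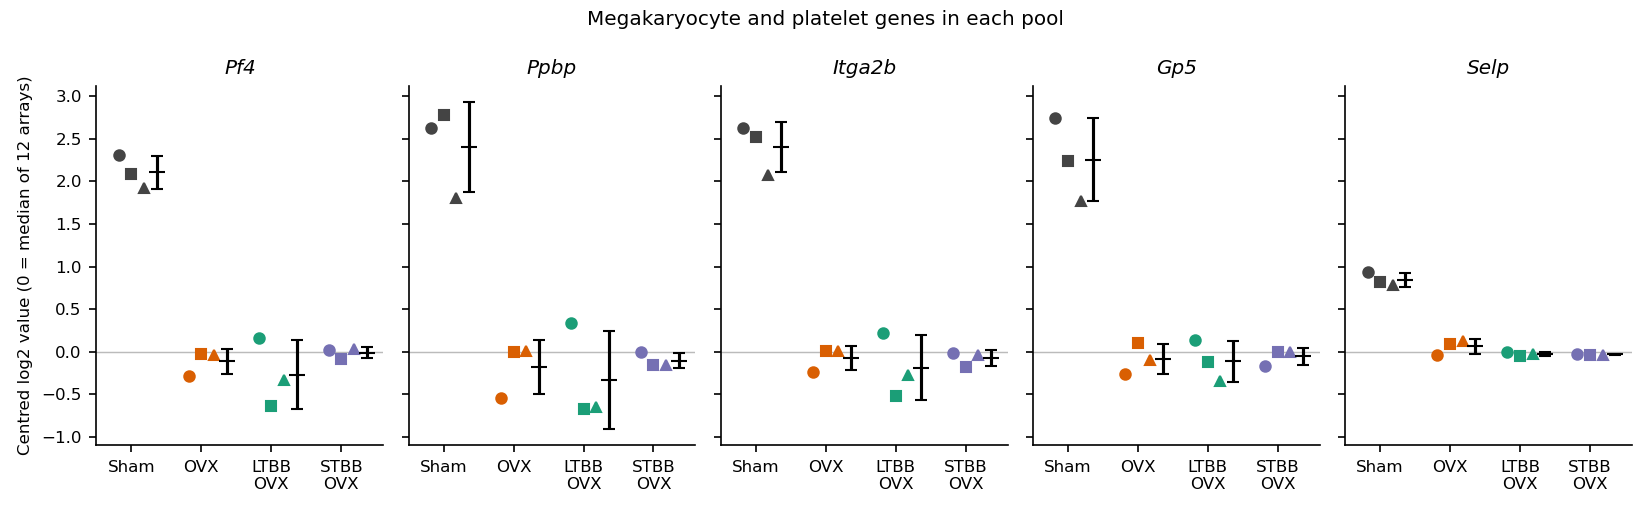
Centred log2 values (vertical axis, 0 is the median of the 12 arrays) of Pf4, Ppbp, Itga2b, Gp5 and Selp, with 1 panel per gene and the 4 groups side by side. Each symbol is a pool (pool 1 a circle, pool 2 a square, pool 3 a triangle), with the group mean ± SD (n = 3) drawn over them; the sham pools lie between 1.77 and 2.77 for the first 4 genes and between 0.78 and 0.94 for Selp, above the 9 pools of OVX rats in each panel.

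**Figure D2:**
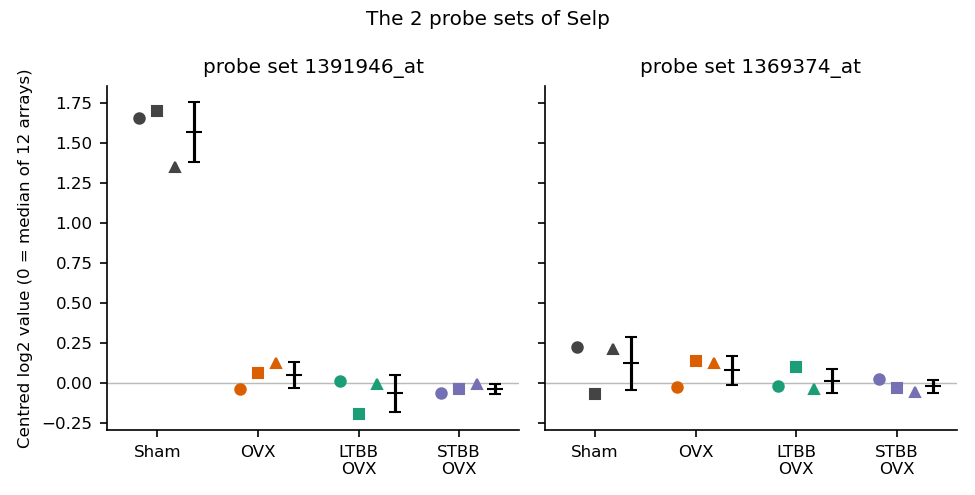
Centred log2 values of the 2 probe sets of Selp in the 4 groups, with pools 1, 2 and 3 as circles, squares and triangles and the mean ± SD (n = 3) as bars. Probe set 1391946_at has 1.35 to 1.70 in the sham pools and -0.20 to 0.13 in all others, while in probe set 1369374_at the sham pools overlap the others.

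Both BB groups were below sham as well. All 5 measured members were lower in LTBB OVX and in STBB OVX than in sham, with no overlap of pools. Of all genes 29.1% were lower and 29.2% higher in LTBB OVX, and 29% were lower and 29.3% higher in STBB OVX, which makes 58.3% in each. Pools did not overlap in 62.7% and 62% of genes. In LTBB OVX the log2 differences from sham were -2.37 for Pf4, -2.73 for Ppbp, -2.59 for Itga2b, -2.36 for Gp5 and -0.87 for Selp. In STBB OVX they were -2.11, -2.50, -2.48, -2.31 and -0.88 for the same genes in the same order. Adjusted p-values by limma reached at most 5.0e-06, for Ppbp in STBB OVX. Quantile normalization, which shrinks differences from sham by construction, made these differences smaller. Calls were lost there by Ppbp in LTBB OVX (-1.69, adjusted p = 0.083 by limma). In STBB OVX they were lost by Ppbp (-1.07, adjusted p = 0.27 by limma) and Pf4 (-0.77, adjusted p = 0.087 by limma). These comparisons share the sham arrays with that of OVX, so their likeness is not a separate result. Over the 9 pools of OVX rats, the highest value of a member stayed below its lowest sham value by 0.65 for Selp and by 1.47 to 1.85 for the others.

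No member passed the test between a BB group and the OVX group or between the BB groups. By limma 0 of 5 passed in each of these comparisons, 0 of 5 had an unadjusted p under 0.05, and the background was also 0% of genes after adjustment (2.31%, 2.89% and 3.4% at an unadjusted p under 0.05). Pf4 had 0.17, -0.64 and -0.33 in the LTBB OVX pools and 0.021, -0.080 and 0.034 in the STBB OVX pools. The STBB OVX pools of Pf4 lay within the range of the LTBB OVX pools. Against OVX, the log2 difference of Pf4 in LTBB OVX was -0.16 (95% confidence interval -0.51 to 0.20), and in STBB OVX it was 0.10 (-0.25 to 0.46). For Itga2b it was -0.12 (-0.50 to 0.26) and 0.00 (-0.38 to 0.38). For Gp5, whose LTBB OVX pools had 0.13, -0.12 and -0.35 and whose STBB OVX pools had -0.16, 0 and 0, it was -0.028 (-0.46 to 0.40) and 0.029 (-0.40 to 0.46). The intervals of these 3 genes thus left room for changes of up to about 0.5 on the log2 scale in either direction, against a distance from sham of 2.11 or more.

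Ppbp and Selp bounded the range of precision. For Selp this is the precision of a mean of 2 probe sets (SE 0.066 in OVX against sham). Each alone had a larger SE, 0.099 for 1391946_at and 0.091 for 1369374_at, and the latter did not pass against sham. Ppbp had 0.33, -0.67 and -0.65 in the LTBB OVX pools and 0.001, -0.15 and -0.16 in the STBB OVX pools. Its difference from OVX was -0.15 (-0.76 to 0.46) for the long-term diet and 0.076 (-0.54 to 0.69) for the short-term diet. The differences of Selp from OVX were -0.090 (-0.23 to 0.052) and -0.093 (-0.24 to 0.050). Between STBB OVX and LTBB OVX the difference was 0.26 (-0.099 to 0.62) for Pf4, 0.23 (-0.39 to 0.84) for Ppbp and -0.003 (-0.15 to 0.14) for Selp. Those of Pf4 and Ppbp depended on the LTBB OVX pools. Without LTBB OVX pool 1 they were 0.48 and 0.56, without pool 2 they were 0.074 and 0.054, and without pool 3 they were 0.23 and 0.066. After quantile normalization they were 0.45 and 0.61.

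**Figure D3:**
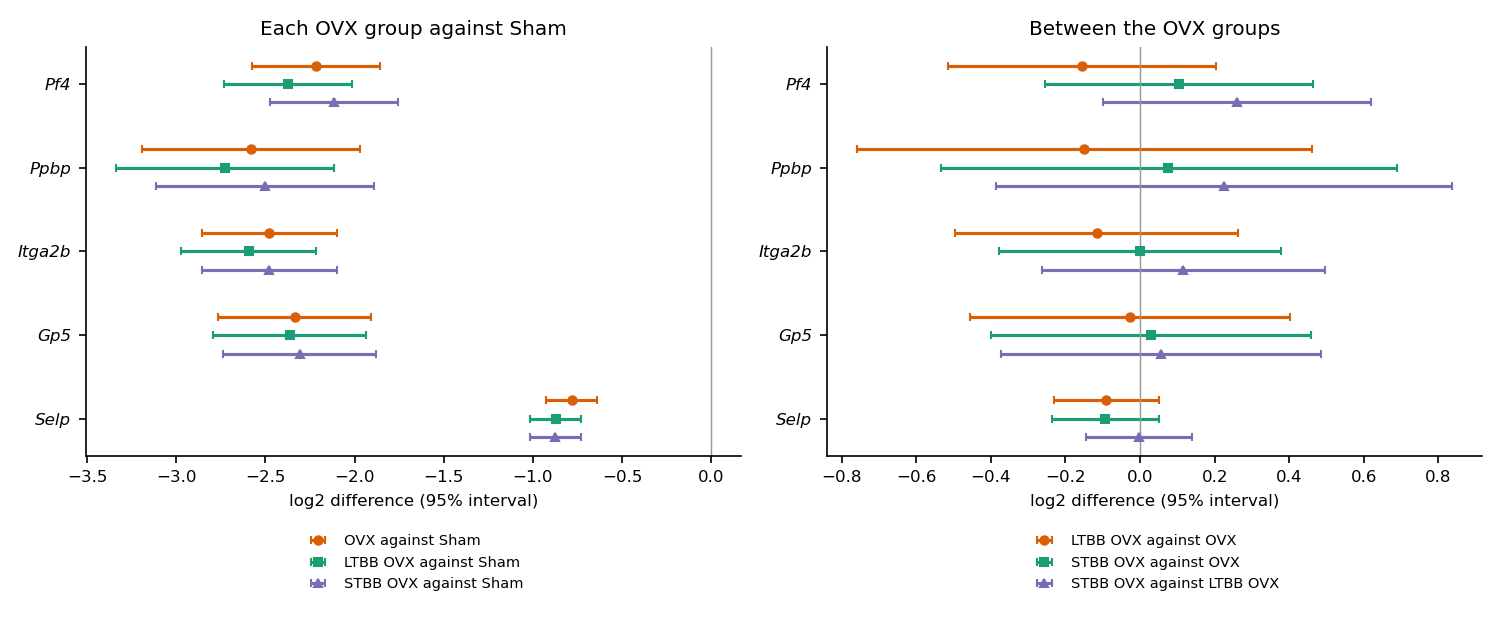
Log2 difference of each measured member (horizontal axis) with its 95% confidence interval from the fit of all 12 arrays, for the OVX groups against sham (left) and between the OVX groups (right), n = 3 pools per group. On the left every interval lies below 0, from -3.34 to -0.64, and on the right every interval spans 0.

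The members varied together between the pools of the sham, OVX and LTBB OVX groups. Sham pool 3 had the lowest sham value for 5 of 5 members and OVX pool 1 the lowest OVX value for 5 of 5. LTBB OVX pool 1 had the highest value of its group for 5 of 5. In STBB OVX the order was not shared by all. Pool 2 was the lowest for 3 of 5 members, and pool 1 was the highest for 3 of 5. The mean of the 5 was 2.25, 2.09 and 1.67 in the sham pools, -0.27, 0.038 and 0 in the OVX pools and 0.17, -0.40 and -0.32 in the LTBB OVX pools, whereas the STBB OVX pools had -0.088 to -0.034. The LTBB OVX group was therefore the most spread of the 3 groups of OVX rats. After the group means were taken off, Pearson's r over the 12 arrays was 0.959 between Pf4 and Itga2b, 0.94 between Ppbp and Itga2b and 0.846 between Pf4 and Ppbp, with 0.608 as the lowest, between Ppbp and Selp. With the group means left in, r ranged from 0.965 to 0.997, with the sham arrays far from the rest. All values of an array share its RNA pool and hybridization. The share of all genes with such a pool order, or with such an r after the group means were taken off, is not given. The joint variation is therefore not read as particular to the members.

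Other marker lists, of marrow and of other tissues, shared part of this pattern. Sham pool 3 was also the lowest sham pool in the mean of 7 erythroid markers (2.42, against 2.81 and 2.87) and of 6 neutrophil markers (2.18, against 2.73 and 2.42). It was the lowest too for the endothelial (-0.70), macrophage (-1.15), mast cell and basophil (-0.64) and osteoblast (-1.99) markers. It was the highest in the mean of 10 skeletal muscle markers (4.19, with 3.44 the lowest sham pool) and of the chondrocyte markers (-5.54). For stem and progenitor cell markers and housekeeping genes it lay between the other sham pools. The low place of sham pool 3 was thus not particular to platelet or marrow genes. OVX pool 1 was the lowest OVX pool for the erythroid markers (-0.30) but not for the neutrophil markers (-0.22, against -0.29 in pool 3). It was the lowest also for endothelial markers (0.022), stem and progenitor cell markers (-0.073) and housekeeping genes (-0.064). For the mast cell and basophil (0.221), osteoblast (0.043) and chondrocyte (0.255) markers it was the highest. The part of these markers in the results for the platelet genes was not tested.

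The genes with the pattern most like the mean of the 5 members over the 12 arrays were Mmrn1 (r = 0.998), which encodes the alpha granule protein multimerin, Prkar2b (0.997), a regulatory subunit of protein kinase A, Plek (0.997), which encodes pleckstrin of platelets and leukocytes, Rgs18 (0.997), a regulator of G protein signalling found in platelets, and Coro1a (0.996), a coronin of blood cells. Of all genes 16.1% had an r over 0.9 by this measure. After the group means were taken off, the highest were Ppif (0.989), mitochondrial cyclophilin D, Rgs18 (0.973), Mmrn1 (0.967), Prkar2b (0.957) and Fcgr1a (0.953), an Fc receptor of myeloid cells. Mmrn1, Rgs18 and Prkar2b were thus in the first 5 by both measures, while Ppif and Fcgr1a differed less between OVX and sham (-1.11 and -0.67 on the log2 scale).

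A list of 57 other genes of megakaryocytes and platelets was read beside the members, and 49 of them were measured. By limma 37 of the 49 were lower in OVX than in sham, 5 were higher and 7 did not pass, with a median log2 difference of -1.06. Of all genes 28.6% were lower and 30.3% higher, with a median of 0.0047. After the arrays were given the same distribution by quantile normalization, 27 of the 49 passed in place of 42. That setting shrinks differences from sham by construction, though not by the same share for every gene. The share of all genes that passed in it is not given, so the fall is not read as particular to this list. In LTBB OVX and in STBB OVX 37 were lower and 5 higher than in sham as well. Between the groups of OVX rats 0 of 49 passed in any comparison, and at an unadjusted p under 0.05 there were 0 for LTBB OVX against OVX, 2 for STBB OVX against OVX and 2 between the BB groups.

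Surface proteins divided into 2 directions. Of 7 measured adhesion receptors and surface proteins 3 were lower, Treml1 (-2.63 (SE 0.14)), a receptor stored in platelet alpha granules, Clec1b (-2.41 (SE 0.18)), the podoplanin receptor CLEC-2, and Gp9 (-1.75 (SE 0.16)), which joins Gp5 and Gp1bb in the receptor for von Willebrand factor. The tetraspanin Cd9 was higher (0.68 (SE 0.076)), as were Esam and Pear1, named after their values were seen, which are also made by endothelium. Itgb3, the beta chain that pairs with Itga2b and that osteoclasts and other cells also make, had 0.065 (95% confidence interval -0.11 to 0.24, adjusted p = 0.51 by limma). With arrays centred on housekeeping genes Itgb3 had 0.30 and passed as higher (adjusted p = 0.0059 by limma), whereas Itga2b was lower in both settings. Of the 6 housekeeping genes 3 were themselves lower in OVX and 1 higher. Centring on them shifted all genes upward, to a median of 0.24, and the call of Itgb3 came with that shift. Gp1ba, Gp6, Itga2 and Cd226 were not analysed here.

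Receptors of soluble agonists were mostly lower. Of 7 measured 5 fell, among them P2ry1 (-2.26 (SE 0.19)), an ADP receptor, P2rx1 (-1.48 (SE 0.12)), an ATP-gated channel, and the protease-activated receptor genes F2rl2 (-1.74 (SE 0.14)) and F2rl3 (-1.61 (SE 0.18)). F2r, the thrombin receptor of many cell types, was higher (0.77 (SE 0.071)), named after its value was seen. Tbxa2r, the thromboxane receptor, had -0.095 (adjusted p = 0.47 by limma).

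Granule genes moved with the members. Of 7 measured 6 fell and none rose, with a median of -1.90. Mmrn1 had -2.89 (SE 0.23), F5, coagulation factor V, -2.53 (SE 0.17), Srgn, the granule proteoglycan serglycin, -1.93 (SE 0.12), and Rab27b, a small GTPase of granule transport, -1.90 (SE 0.14). F13a1, the factor XIII A chain that macrophages also make, had -0.11 (adjusted p = 0.56 by limma). Its 2 probe sets went opposite ways, and the one that was lower passed, with -0.45 (adjusted p = 0.013 by limma over all probe sets), while the other had 0.23 (adjusted p = 0.34). Of 14 measured genes of signalling, cytoskeleton and eicosanoid synthesis 13 fell and 1 rose, with a median of -1.08. Tubb1, the beta tubulin of platelets, had -2.59 (SE 0.19), Alox12, the platelet lipoxygenase, -2.47 (SE 0.17), Plek -2.07 (SE 0.15) and Fermt3, the integrin activator kindlin-3, -1.98 (SE 0.12). The gene of this role that rose was Lcp2, an adaptor of blood cells, by 0.85 (SE 0.081), named after its value was seen.

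The transcription factors with the largest falls are shared with red cell precursors. Of 10 measured 9 fell and 1 did not pass. Nfe2 had -3.42 (SE 0.16), Gata1 -3.09 (SE 0.11), Gfi1b -1.61 (SE 0.10) and Tal1 -1.58 (SE 0.086), all of which act in both megakaryocytes and erythroid cells. The value of Tal1 is the mean of 2 probe sets that differed, with -2.85 (adjusted p = 4.2e-11 by limma over all probe sets) and -0.31 (adjusted p = 0.063), and with the first by ID alone it was -2.85. Probe sets of Gata2, named after its values were seen, went opposite ways. They had -1.48 (adjusted p = 3.9e-09 by limma over all probe sets) and 0.205 (adjusted p = 0.0475), so the latter passed as higher. Fli1, Runx1 and Zfpm1, named likewise, each had a probe set that did not pass. Etv6, an ETS factor of many cells, had 0.13 (adjusted p = 0.33 by limma). Of the partners of the members, Cxcr2, a receptor of the processed Ppbp product on neutrophils, fell by 2.21 on the log2 scale (SE 0.17), and Cxcr3 (0.11), Fgb (-0.10) and Fgg (0.090) did not pass. Selplg, which encodes the ligand of P-selectin, was not analysed here.

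**Figure D4:**
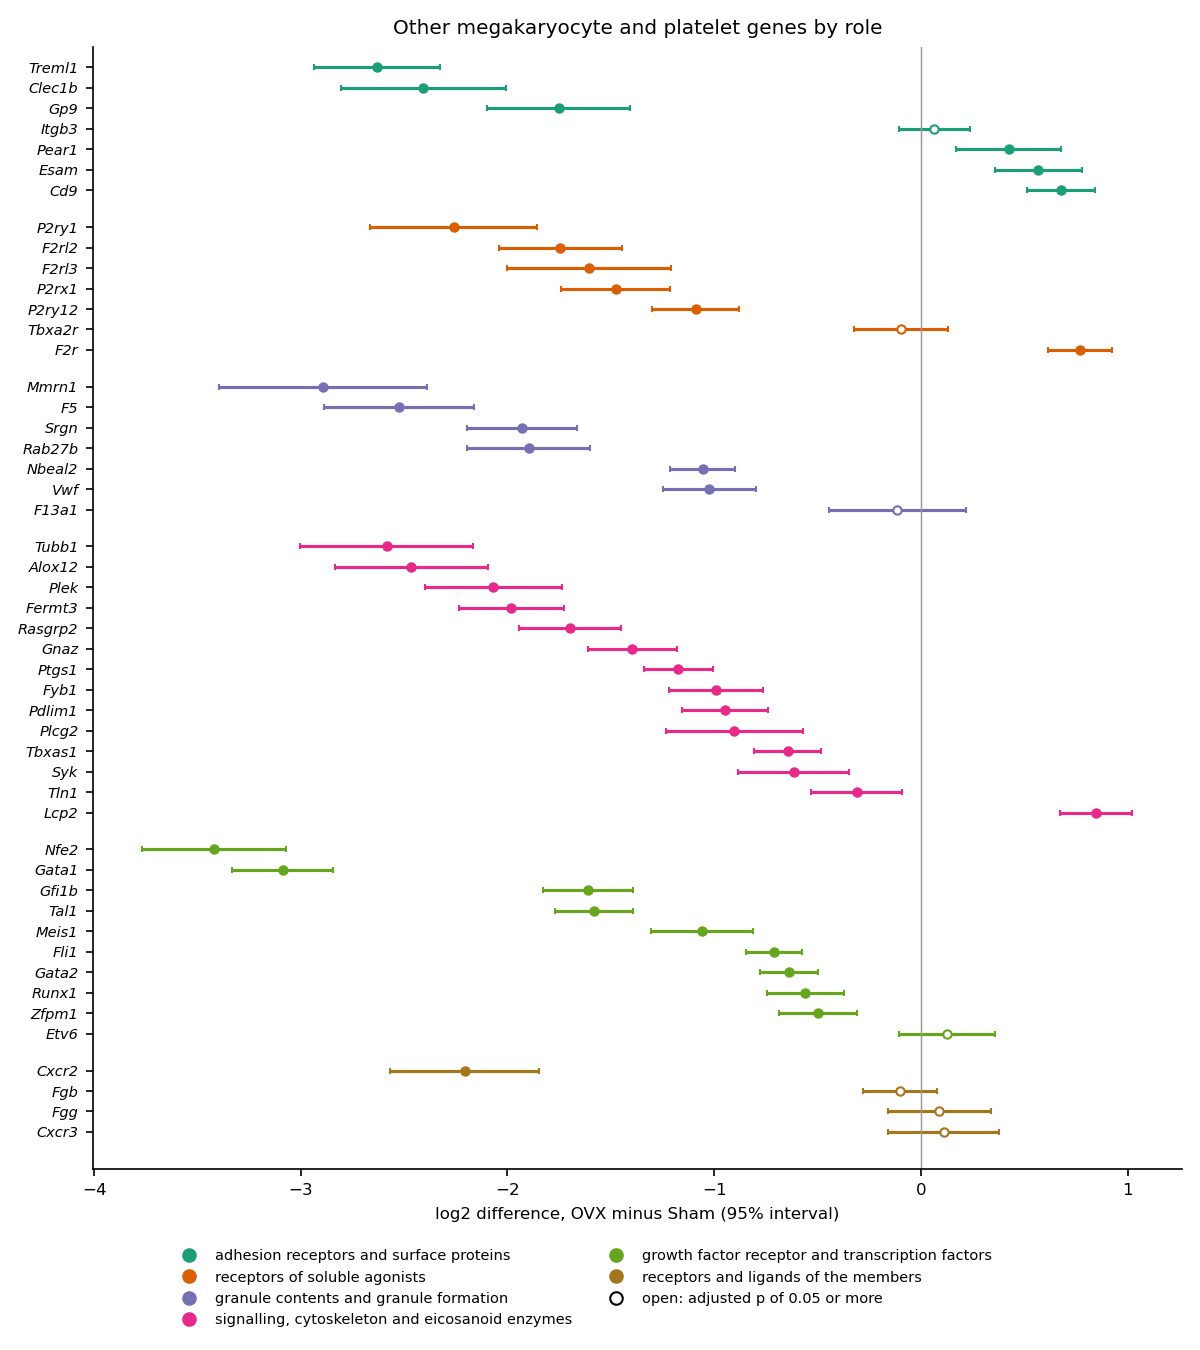
Log2 difference between OVX and sham (horizontal axis, 95% confidence interval) for 49 other genes of megakaryocytes and platelets, ordered within 6 roles, n = 3 pools per group. Filled circles passed limma's test and open circles did not; 37 lie below 0 and passed, and the 5 that rose are Cd9, Esam, Pear1, F2r and Lcp2.

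Markers of other cells of bone and marrow were measured beside these genes. All 7 erythroid markers (median -2.74) and all 6 neutrophil markers (median -2.72) were lower in OVX than in sham, among them Epb42 (-3.75 (SE 0.16)), a red cell membrane protein, and Camp (-3.69 (SE 0.14)), the granule cathelicidin. Red cell and neutrophil markers thus moved in the same direction as most of the platelet genes. The 10 skeletal muscle markers were all lower too (median -6.19). Of 11 endothelial markers 9 were higher and 2 lower (median 0.84); Emcn had 2.01 (SE 0.075) and Plvap 1.67 (SE 0.074), and the 2 that fell were Vwf (-1.02 (SE 0.10)) and Selp, the genes of that list that also stand among the platelet genes. All 7 osteoblast markers (median 1.78) and all 5 chondrocyte markers (median 5.14) were higher. Macrophage markers had 5 higher and 1 lower of 7, mast cell and basophil markers 6 higher and 2 lower of 8, and stem and progenitor cell markers 3 and 3 of 6. Of 6 housekeeping genes 1 was higher and 3 lower (median -0.20). The mean of the erythroid markers was 2.42 to 2.87 in sham and -0.30 to 0.14 in the other groups, and that of the neutrophil markers 2.18 to 2.73 and -0.34 to 0.071. That of the endothelial markers was -0.70 to -0.57 in sham and -0.023 to 0.093 elsewhere. All 3 means set sham apart from the other groups without overlap. The erythroid and neutrophil means moved in the direction of the platelet genes and the endothelial mean in the opposite one. The part of these markers in the result was not tested.

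**Figure D5:**
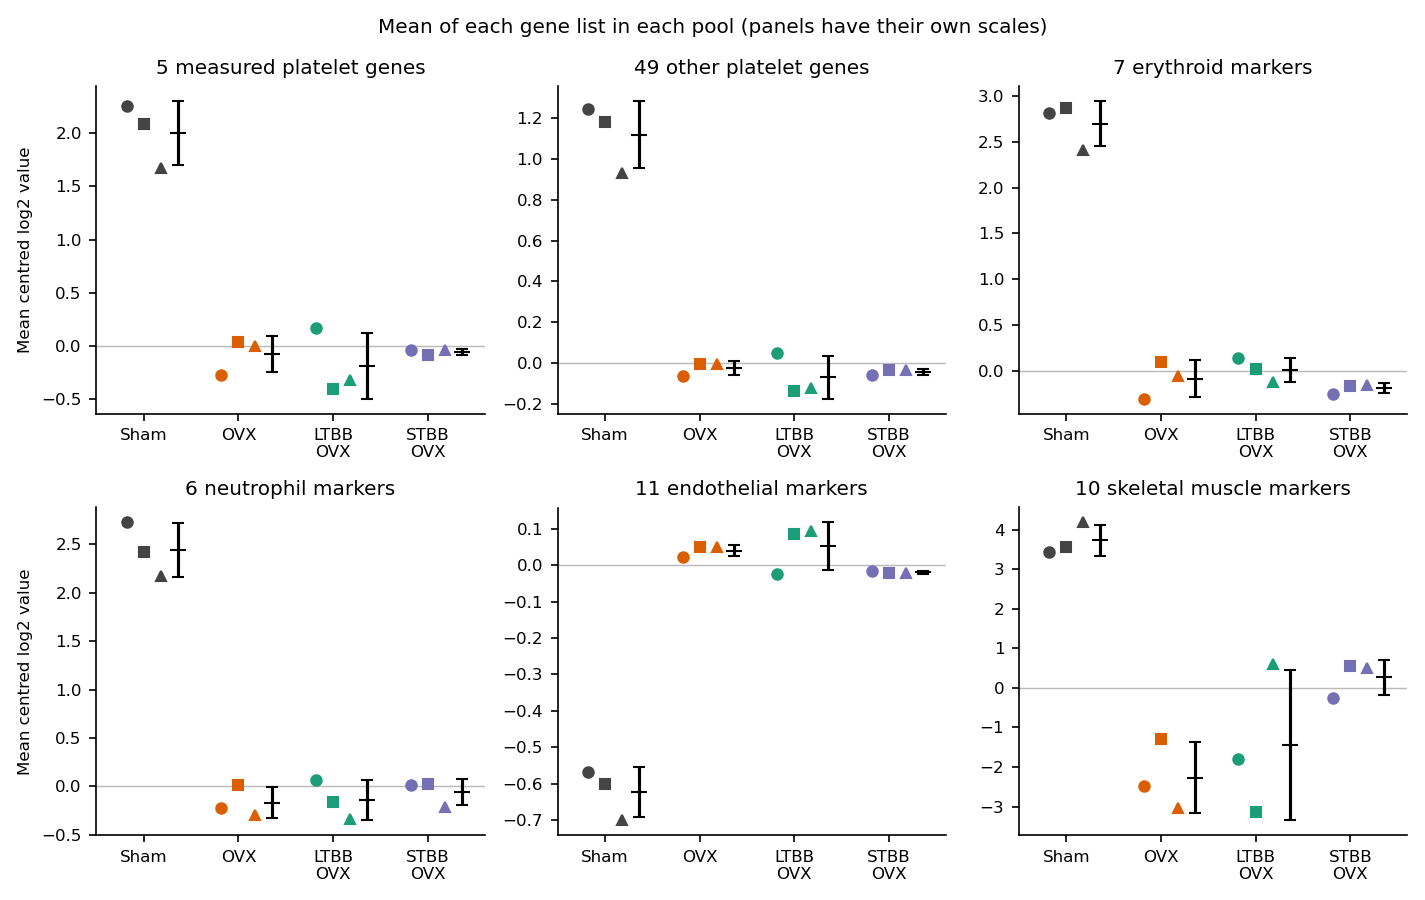
Mean centred log2 value of 6 gene lists in each pool (circles, squares and triangles are pools 1, 2 and 3) with the mean ± SD (n = 3); each panel has its own vertical scale. The platelet, erythroid, neutrophil and muscle means are highest in sham, 1.67 to 2.25 for the 5 measured platelet genes, and the endothelial mean is lowest in sham.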

How the data were processed

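Total bone RNA of 4 groups was hybridized to Affymetrix GeneChip rat expression arrays, 3 pools per group. The authors deposited log2 values made by robust multiarray analysis and then normalized per chip and per gene in GeneSpring; GCOS and RMA are the tools in the submitters' processing notes. This leaves a median of 0 for each probe set over the 12 arrays, so levels between genes cannot be compared and dim probe sets cannot be filtered.

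Of 31099 probe sets 57 controls were left out. GEO's platform annotation gave 1 symbol for 20826 of the others, several for 436 and none for 9780. Symbols were updated by gene ID (20758 matched) through RefSeq genes of GRCr8. The value of a gene was the mean over its probe sets, which gave 14217 genes. These were fitted with limma 3.58.1 in R 4.3.3 as 4 group means over 12 arrays, with Benjamini-Hochberg adjustment over all genes at 0.05 in each of 6 comparisons. Log2 differences are given with the moderated standard error (SE) or the 95% confidence interval. An exact permutation of 3 pools against 3 cannot go below p = 0.10, and p-values measure the spread between pools. Precision is set by how few arrays there are.

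The members and lists were chosen with earlier results of these data known, so no list was tested. Named were all members, in each role up to 4 genes with the largest change past the threshold and up to 3 that did not pass, the leading markers of other cells, and the 5 genes most like the members. Promoters came from RefSeq. On simulated data for OVX against sham (14217 genes, 200 changed) 94% of changes of log2 1 and 100% of log2 2 were recovered, with 10 false calls. The simulated noise was independent between genes and few genes were changed, whereas 58.9% were called in the data. Its recovery therefore checks the fit and does not carry over to the data. Pool numbers are shared between groups. Deviations of same-numbered pools correlated at 0.104 to 0.232 between sham and either BB group and at -0.376 to 0.086 in the other pairs of groups, and nothing in the labels ties the numbers to a batch. Alternatives were other scalings, summaries of probe sets, filters, thresholds, weights, variance moderation and samples, a replicate block, and leaving out each pool. Figures were drawn with matplotlib 3.10.9.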

Additional observations from a re-analysis of the deposited data

How the results depend on the processing

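The count of members called against sham was 5 in each OVX group, and it stayed at 5 without any single pool and with the replicate block. It was 3 in OVX and 3 in STBB OVX when quantile normalization was applied once more, and 4 in LTBB OVX. That setting gives all arrays the same spread, whereas sham was the widest as deposited, so it shrinks differences from sham by construction. The share of all genes that passed there is not given, so counts in that setting have no background beside them. There Ppbp (-1.17, adjusted p = 0.22) and Selp (-0.21, adjusted p = 0.12) lost their calls in OVX, Ppbp (-1.69, adjusted p = 0.083) in LTBB OVX, and Ppbp (-1.07, adjusted p = 0.27) and Pf4 (-0.77, adjusted p = 0.087) in STBB OVX. With 1 probe set per gene by its ID, Selp was -0.044, -0.11 and -0.14 in OVX, LTBB OVX and STBB OVX and lost its call in each. In the other settings all 5 passed. Of the 49 other platelet genes 42 passed in OVX against sham, and 41 to 43 without any single pool. With the replicate block 42 passed, and after quantile normalization 27. Among the genes picked for naming in each role, Clec1b (-0.81), Mmrn1 (-1.17) and Cd9 (0.26) lost their calls after quantile normalization. The other genes that lost calls in that setting are not listed. Centring on housekeeping genes moved the median of all genes in OVX against sham to 0.24, and there Itgb3 (0.30), Etv6 (0.36), Cxcr3 (0.34) and Fgg (0.32) passed; Fgb passed without OVX pool 1 (-0.20).

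Between the groups of OVX rats 0 members and 0 of the other platelet genes passed in any setting run, the 9 arrays of OVX rats alone included, a setting chosen after seeing the data. The planned pseudocounts were not run, since the values are on a log scale, and leaving out the genes with the smaller SD gave no value for Itgb3, Tbxa2r, Etv6, Cxcr3, Fgb and Fgg. Small differences that did not pass turned sign. Without single pools, Pf4 ranged from -0.37 to 0.031, Ppbp from -0.48 to 0.023, Itga2b from -0.32 to 0.050 and Gp5 from -0.15 to 0.089 for LTBB OVX against OVX. For STBB OVX against OVX, Ppbp ranged from -0.10 to 0.17, Itga2b from -0.084 to 0.051 and Gp5 from -0.056 to 0.12. Between the BB groups Itga2b ranged from -0.050 to 0.32, Gp5 from -0.060 to 0.18 and Selp from -0.014 to 0.007. With arrays weighted, Ppbp was -0.001 and Itga2b -0.027 for STBB OVX against OVX and Gp5 0.008 for LTBB OVX against OVX. After quantile normalization Itga2b was -0.006 for STBB OVX against OVX and Selp 0.010 between the BB groups. With housekeeping centring Itga2b was -0.053 and Gp5 -0.024 for STBB OVX against OVX. Among genes that did not pass in OVX against sham, Tbxa2r was 0.023 after quantile normalization, Tbxa2r 0.14, F13a1 0.12 and Fgb 0.14 with housekeeping centring, and F13a1 0.23 with 1 probe set per gene. Without single pools Itgb3 ranged from -0.012 to 0.11, Tbxa2r ranged from -0.19 to 0.008 and Fgg from -0.016 to 0.18.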
